A study of Mus musculus with 14 samples.

Results

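Transcripts of whole lungs from mice lacking the tetraspanin CD9 were compared with those of wild type lungs. The comparison rests on 9 of the 14 arrays of the series: 5 labelled CD9KO, numbered 1 to 5, and 4 labelled wild type, numbered 1, 3, 4 and 5. The remaining 5 arrays, from mice lacking the related tetraspanin CD151 (CD151KO), shared the fit and serve below as a second reference. All mice were C57BL/6 and 20 weeks old, and none of the labels gives a treatment. The sources used here do not give which part of Cd9 was deleted, the sex of the mice or whether each array came from a separate animal. Each limma p-value sets a group difference against the spread within the 3 groups of samples, and that spread may therefore be technical. Each array gave a normalized linear signal for 45101 probe sets, which are groups of probes that measure 1 transcript. Levels were analysed as log2(signal + 16), so the fold changes of weak genes are understated. Of 18193 named genes, 12985 lay above a filter on low signal and were tested. Here a gene "rose" or "fell" only if its adjusted p from limma was under 0.05. Gene lists and their members were chosen with earlier results of these data known. The share of a list that passed is therefore a description, given beside the share of all genes.

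Tetraspanins are small membrane proteins that gather integrins, immunoglobulin-like proteins, proteases and growth factor precursors into patches of the cell membrane. CD9 binds the immunoglobulin-like proteins encoded by Igsf8 and Ptgfrn, several integrins and the membrane precursor of heparin-binding EGF-like growth factor, and it is best known for its role in the fusion of sperm and egg. In the lung it is present on epithelium, endothelium, smooth muscle and leukocytes.

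Cd9 itself was the gene with the largest change. In wild type arrays 1, 3, 4 and 5 its signal was 8105, 8116, 7998 and 8163, and in CD9KO arrays 1 to 5 it was 638, 684, 614, 650 and 749. The groups were far apart, at 8096 ± 69.4 (SD, n = 4) and 667 ± 52.3 (SD, n = 5). The fall was 11.9-fold (log2 -3.57, SE 0.05, adjusted p = 9.2e-17), and against CD151KO the log2 difference was -3.60. Cd9 has 1 probe set on the array, and whether it lies within the deleted part is not known, so what the remaining signal measures cannot be stated. Below, signals by array are given in the order of the array numbers, wild type first.

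Across the transcriptome the differences were many and mostly small. The test was passed by 715 of 12985 genes (5.51%): 374 rose (2.88%) and 341 fell (2.63%). The median change of the genes that passed was 1.19-fold, and 372 of them (52.0%) changed by less than 1.2-fold. Only 26 passed with a change of at least 1.5-fold, 18 of them upwards and 8 downwards. At an unadjusted p under 0.05 there were 3304 genes (25.4%). The median log2 difference of all genes tested was 0.0037. For 621 of the genes that passed (330 that rose and 291 that fell), no CD9KO array overlapped the wild type range, and over all genes tested the same held for 1536 (11.8%), 862 of them higher (6.64%) and 674 lower (5.19%).

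The count of genes depended strongly on single arrays. It was 335, 208 and 186 without CD9KO array 3, 4 or 5, and 267 and 158 without wild type array 1 or 3. Wild type array 1 stood apart from the rest of its group on the first principal component of the 14 arrays, which held 37.5% of the variance. Its score was -18.5, CD151KO array 1 was near it at -17.2, the other 3 wild type arrays lay between -4.97 and 1.48, and the 5 CD9KO arrays between 7.23 and 13.4 (exact permutation test, two-sided, p = 0.0079, 0.032 adjusted over 8 array measures). With wild type array 1 and CD151KO array 1 left out, 405 genes passed (231 rose, 174 fell). Bacterial control transcripts that are added to every sample were also brighter in CD9KO. The Cre control averaged 8709 ± 595 in wild type and 10365 ± 495 in CD9KO (exact p = 0.0079, adjusted 0.032), and BioB, BioC and BioD were higher in CD9KO with adjusted p = 0.032, 0.038 and 0.032. CD151KO arrays were also mostly brighter than wild type. BioB ran from 276 to 319 in CD151KO and from 249 to 265 in wild type. Cre ran from 9279 to 10387 in CD151KO and from 7932 to 9371 in wild type. Ratios of 3′ to 5′ signal, a sign of RNA integrity, had exact p = 0.69 for Gapdh and 0.21 for Actb. Their part in the results was not tested.

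**Figure D1:**
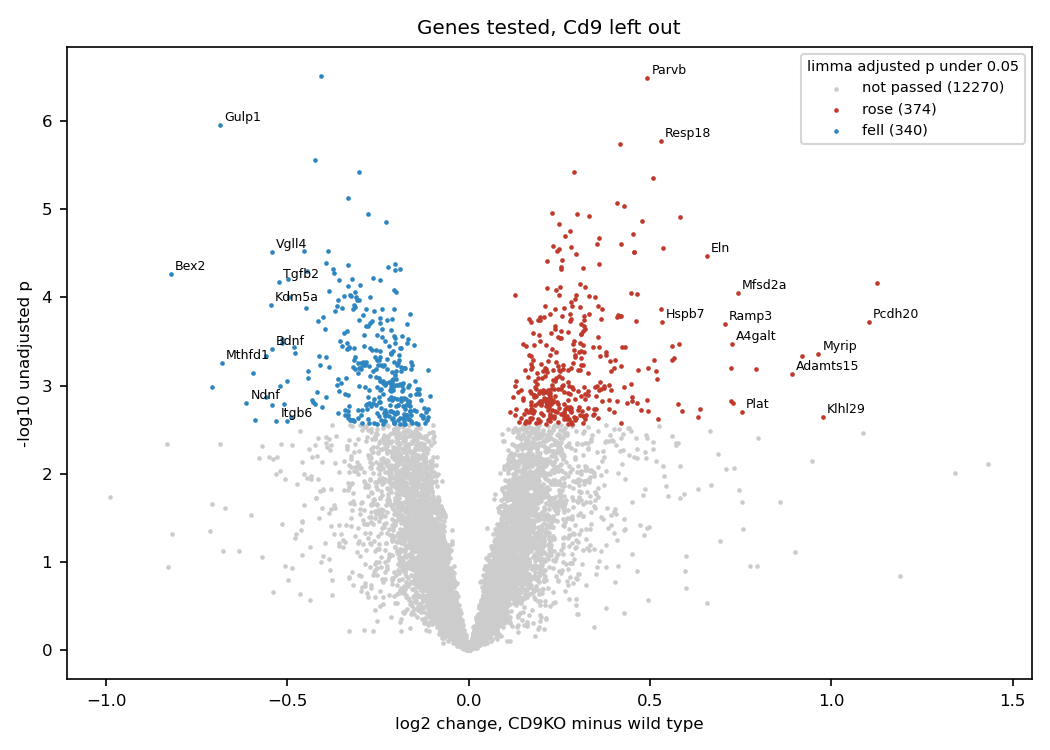
Each point is 1 of the tested genes other than Cd9, with the log2 change in CD9KO on the x axis and -log10 of limma's unadjusted p on the y axis; the 374 genes that rose are red and the 340 other genes that fell are blue. All coloured points other than those of Pcdh20 and Map2 lie within 1 log2 unit of 0, and Parvb and Gulp1 are among the highest points.

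The 15 largest rises among genes without overlapping arrays lay between 0.59 and 1.10 on the log2 scale. Pcdh20, a protocadherin of cell contacts, had signals of 40, 56.7, 62.0 and 50.1 in wild type and 129, 77.7, 93.2, 205 and 184 in CD9KO. Its level was low and its spread in CD9KO wide, and it rose by 1.10 on the log2 scale (SE 0.23, adjusted p = 0.0175). Without wild type array 1 its adjusted p was 0.0509. Myrip, which links secretory organelles to myosin motors, measured 464, 616, 705 and 526 against 872, 1097, 1087, 1672 and 1056 (log2 0.96, SE 0.22, adjusted p = 0.0249). CD9KO array 4 was the highest for both genes. Mfsd2a, the carrier of lysophosphatidylcholine with omega-3 fatty acids, was among the tightest: 88.5, 97.2, 82.9 and 93.6 in wild type and 150, 167, 154, 159 and 181 in CD9KO (log2 0.74, SE 0.14, adjusted p = 0.0149). Its CD9KO arrays all lay well above the wild type range. Klhl29, a kelch-like protein, rose by 0.98 and A4galt, which makes the glycolipid globotriaosylceramide, by 0.73. Tinagl1, a basement membrane-associated protein, rose by 0.79, from 446, 663, 743 and 799 to 1158, 1092, 1112, 1228 and 1085. Hspa12b, an endothelial relative of the Hsp70 chaperones, rose by 0.72, and its 5 CD9KO arrays were nearly equal (589 to 604) while the 4 wild type arrays ran from 252 to 509. Ramp3, a partner of the adrenomedullin receptor, rose by 0.71, Lypd6b by 0.63 and Gria3, a glutamate receptor subunit, by 0.59. The adjusted p-values of these 7 genes lay between 0.0177 and 0.046.

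Falls other than that of Cd9 were smaller. Bex2, a small adaptor protein first described in brain, had signals of 1208, 765, 866 and 826 in wild type and 557, 471, 561, 544 and 403 in CD9KO. It fell by 0.82 on the log2 scale (SE 0.15, adjusted p = 0.0129), and no CD9KO array reached the wild type range. Gulp1, an adaptor for the engulfment of dying cells, measured 701, 655, 599 and 525 against 434, 382, 350, 385 and 340 (log2 -0.69, SE 0.09, adjusted p = 0.0036), and its other 2 probe sets changed in the same direction. Vgll4, a cofactor of TEAD transcription factors that competes with YAP, fell from 536, 537, 495 and 501 to 401, 404, 327, 292 and 339 (log2 -0.54, SE 0.09, adjusted p = 0.0108). Mthfd1, an enzyme of folate metabolism, fell by 0.68, with a split among the wild type arrays: 2342 and 2198 in arrays 1 and 3, but 1550 and 1492 in arrays 4 and 5. A like split was seen for Ndnf, a secreted neurotrophic factor (3216 and 3305, then 2157 and 2308; log2 -0.61). Elf5, an ETS transcription factor of epithelial cells, fell by 0.59, Lrrc17 and Lzts1 by 0.56, Tmem88, an inhibitor of Wnt signalling, by 0.54 and Bdnf, a neurotrophin, by 0.54. Junos, transcribed opposite to Jun, fell by 0.51, and Jun itself had a log2 difference of 0.02 (adjusted p = 0.87). Kdm5a, a histone demethylase, fell by 0.55 on its brightest probe set, but of its 3 other probe sets above the filter 2 had a log2 difference above 0 (0.05 and 0.13).

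**Figure D2:**
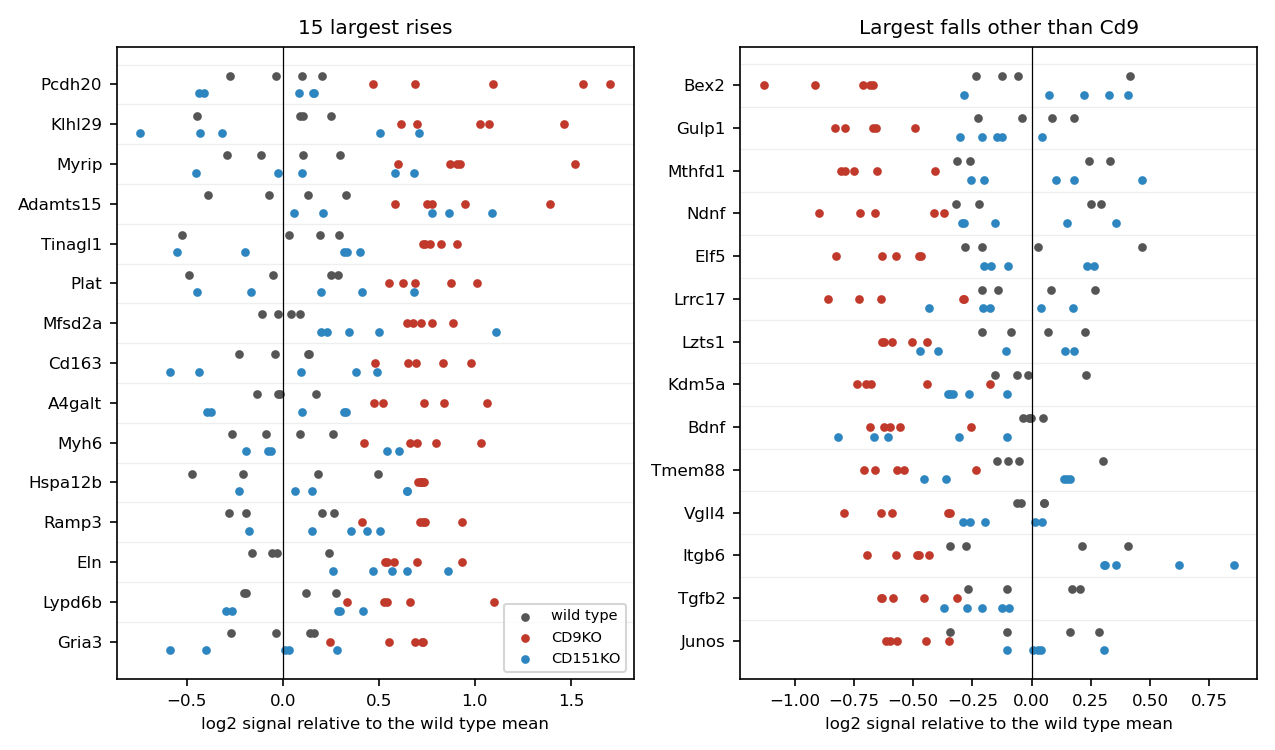
Log2 signal of every array relative to the wild type mean, for the 15 largest rises (left) and the 14 largest falls other than Cd9 (right); each point is 1 array of wild type (grey, n = 4), CD9KO (red, n = 5) or CD151KO (blue, n = 5). The red points do not overlap the grey ones for any gene shown, as the choice of genes requires, while blue points reach into the red range for Adamts15, Mfsd2a, Eln and Bdnf.

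Set against CD151KO, some of these genes differed as they did from wild type and others did not. The comparisons share the CD9KO arrays, so neither is support for the other, and 1313 genes (10.1%) passed between the knockouts. Bex2 was lower in CD9KO than in CD151KO by 0.97 (adjusted p = 0.0014), and Pcdh20 was higher by 1.19 (0.0047). For Eln the log2 difference from CD151KO was 0.10 (adjusted p = 0.6), for Bdnf -0.04 (0.84), for Mfsd2a 0.27 (0.21) and for Adamts15 0.29 (0.36). Itgb6 was lower than in CD151KO by 1.02 (0.0011).

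The calls of single genes were uneven in how well they held. Mfsd2a, Eln, Bex2, Gulp1, Vgll4 and Tgfb2 passed in every alternative that could test them, 20 for Mfsd2a and 21 for each of the others. Itgb6, in contrast, passed in 6 of 21, Klhl29 in 10 and Pcdh20 in 18 of 19. Leaving out wild type array 3 alone ended 68 of the 97 calls followed through the alternatives besides Cd9, and leaving out wild type array 1 ended 59.

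Of the 26 other tetraspanins tested, 3 fell and none rose, with a median log2 difference of -0.03. Tspan1, an epithelial tetraspanin, fell from 1244, 1197, 1184 and 1203 to 1033, 1065, 1006, 997 and 893 (log2 -0.27, SE 0.06, adjusted p = 0.0176). Cd82, a close relative of CD9 that also restrains cell migration, fell from 2178, 2044, 1928 and 1842 to 1743, 1728, 1658, 1685 and 1621 (log2 -0.24, SE 0.05, adjusted p = 0.0192). Tspan15, a partner of the protease ADAM10, fell by 0.30 (adjusted p = 0.045). The CD9KO arrays of all 3 lay below every wild type array, as did those of 291 of the 341 genes that fell. The share that passed was 11.5%, beside 5.51% of all genes, and without wild type array 3 none of the 26 passed, without CD9KO array 5 only 1. Cd81, the closest relative of CD9, had a log2 difference of -0.03 and Cd151 one of -0.09, and neither passed.

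**Figure D3:**
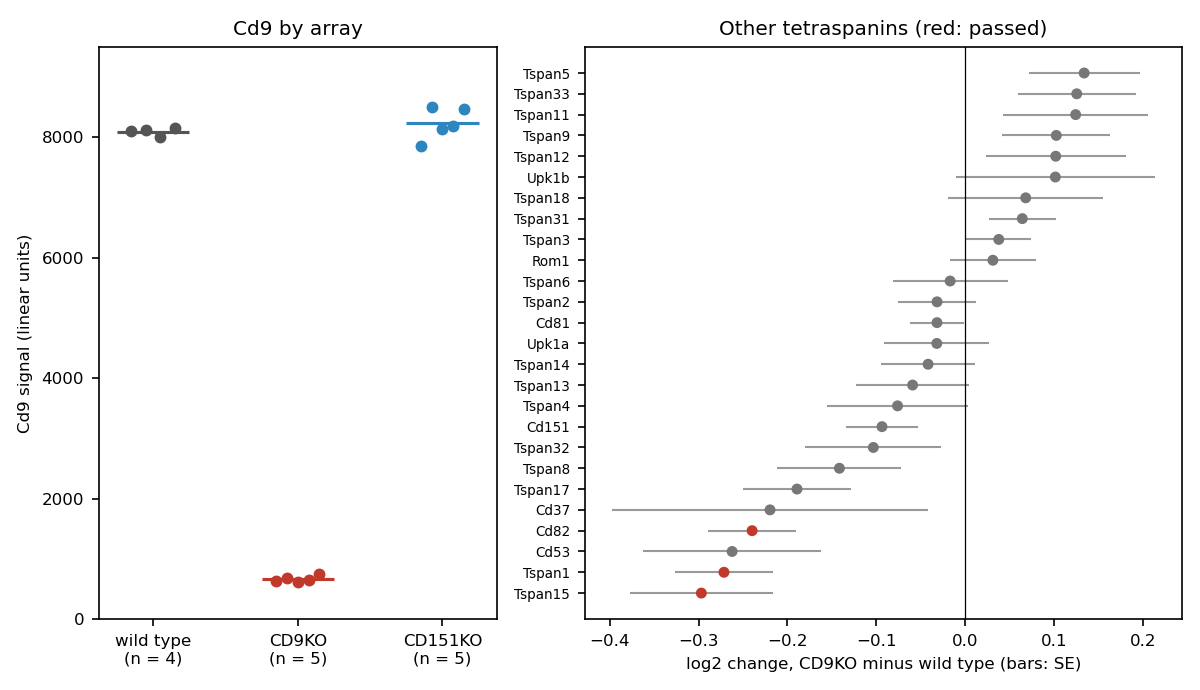
Left, Cd9 signal on a linear axis from 0, each point 1 array and each bar the group mean: the CD9KO arrays lie between 614 and 749, and the wild type arrays between 7998 and 8163. Right, log2 change in CD9KO (point) with its SE (bar) for the 26 other tetraspanins tested; the 3 that fell, Cd82, Tspan1 and Tspan15, are red and all others lie within 0.3 of 0.

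Genes for proteins that bind CD9, together with the ezrin, radixin and moesin linkers of the cell cortex, numbered 29 tested. Of these 2 rose and 1 fell (10.3% passed, beside 5.51%), and the median was -0.01. The direct partners Igsf8 (log2 0.02) and Ptgfrn (0.11) and the integrin subunit Itgb1 (0.00) did not pass. Itga6, the laminin-binding integrin subunit α6, rose from 2257, 2273, 2379 and 2811 to 3007, 3287, 2818, 3217 and 3169 (log2 0.35, SE 0.09, adjusted p = 0.0373), with the highest wild type array just below the lowest CD9KO array. Prkca, which encodes a protein kinase C recruited by tetraspanins, rose by 0.22 and Cd44, the hyaluronan receptor, fell by 0.17, both with overlapping arrays. A second Cd44 probe set of nearly the same brightness had 0.01. None of these 3 genes passed without wild type array 1 or without wild type array 3. Of the 9 EGF receptor family members and ligands tested none passed. An unadjusted p from limma under 0.05 was found for 5 of them, beside 25.4% of all genes. Hbegf, the growth factor precursor that CD9 binds, had a log2 difference of -0.29 (adjusted p = 0.22). Egfr, its receptor, measured 160, 280, 341 and 351 in wild type and 432, 454, 384, 462 and 419 in CD9KO (log2 0.63, SE 0.23, adjusted p = 0.102), and wild type array 1 was the lowest by far.

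A few genes of the signalling complex that joins integrins to actin are given singly. They were picked after their values were seen, so they say nothing of the complex as a group. Parvb, β-parvin, had 410, 402, 448 and 465 in wild type and 613, 600, 600, 613 and 635 in CD9KO. The CD9KO arrays were tight and lay well above the wild type range, and Parvb rose by 0.49 (SE 0.06, adjusted p = 0.0014) and passed in all 21 alternatives. Its much dimmer second probe set, near the filter, had 0.01. Ilk, integrin-linked kinase, rose from 1066, 946, 1020 and 996 to 1295, 1185, 1251, 1201 and 1192 (log2 0.28, SE 0.05, adjusted p = 0.0105). The PINCH adaptors, which bind Ilk, moved in opposite directions. Lims2 rose from 1798, 1976, 2111 and 2359 to 2715, 2706, 2718, 3063 and 2679 (log2 0.43, SE 0.09, adjusted p = 0.023). Lims1 fell from 2730, 2527, 2635 and 2683 to 2397, 2215, 1879, 1803 and 1802 (log2 -0.40, SE 0.08, adjusted p = 0.0191). The other 4 probe sets of Lims1 had log2 differences between -0.03 and 0.08, so its fall rests on 1 probe set. Lims1 did not pass without CD9KO array 5, nor Lims2 without wild type array 1, wild type array 3 or CD9KO array 4. Parva, α-parvin, had 0.08 (adjusted p = 0.204).

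In the extracellular matrix, 4 of 15 elastic fibre genes passed (26.7%, beside 5.51%), 3 upwards and 1 downwards. Eln, elastin, rose from 180, 166, 184 and 224 to 278, 280, 314, 373 and 288 (log2 0.66, SE 0.11, adjusted p = 0.0113), and its second probe set changed in the same direction. Mfap2, a microfibril protein, rose by 0.28 and Ltbp1, which tethers latent TGF-beta to microfibrils, by 0.22. A further microfibril gene, Mfap5, fell from 830, 695, 713 and 719 to 611, 538, 620, 636 and 526 (log2 -0.33, SE 0.06, adjusted p = 0.0149). Mfap5 was also lower than in CD151KO, by 0.94 (adjusted p = 3.3e-07). Ltbp1 lost its call whichever of the 9 arrays was left out, and Mfap2 did not pass without wild type array 3. The list median was 0.05. The list level ran from 9.28 to 9.38 in wild type, 9.31 to 9.46 in CD9KO and 9.48 to 9.55 in CD151KO.

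In the other matrix lists the share that passed was 3.70% for fibrillar collagens and interstitial matrix, 2 of 20 genes for basement membrane and 10.5% for matrix proteases and inhibitors, beside 5.51%. Plod1, a lysyl hydroxylase of collagen, rose by 0.41 (adjusted p = 0.0172) and was the only call among 27 fibrillar collagen and interstitial matrix genes, whose median was 0.08. Of 20 basement membrane genes, Lamc1 and Nid1 rose, by 0.17 and 0.26, and neither passed without wild type array 1 or without wild type array 3. Lamc1 had the opposite sign, -0.029, when all its probe sets were averaged. Adamts15, a secreted protease of proteoglycans, rose from 141, 179, 242 and 209 to 329, 381, 336, 523 and 291 (log2 0.89, SE 0.21, adjusted p = 0.0291). Plat, tissue plasminogen activator, rose from 690, 939, 1162 and 1192 to 1798, 1438, 1514, 1582 and 1982 (log2 0.75, SE 0.20, adjusted p = 0.0435), and its much dimmer second probe set had -0.05. These were the 2 calls among 19 matrix proteases and inhibitors.

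TGF-beta ligands moved apart. Tgfb2 fell from 616, 603, 495 and 440 to 385, 337, 425, 350 and 339 (log2 -0.52, SE 0.10, adjusted p = 0.0144), and all 4 of its probe sets were lower in CD9KO. Tgfb1 rose from 149, 146, 144 and 167 to 212, 199, 214, 155 and 189 (log2 0.32, SE 0.08, adjusted p = 0.0342), but CD9KO array 4 lay inside the wild type range and its second probe set, near the filter, had -0.23. Itgb6, whose integrin activates latent TGF-beta on epithelium, fell from 193, 223, 133 and 126 to 105, 118, 114, 113 and 95.3 (log2 -0.53, SE 0.15, adjusted p = 0.0481). Crim1, which binds BMPs at the cell surface, fell from 1044, 1033, 1084 and 1132 to 939, 830, 803, 775 and 749 (log2 -0.39, SE 0.07, adjusted p = 0.0108). The dimmer second probe set of Crim1 had -0.03. With Ltbp1, 5 of the 30 genes of the TGF-beta and BMP list passed (16.7%, beside 5.51%), 2 upwards and 3 downwards, and the median was -0.01. The receptors Tgfbr1, Tgfbr2 and Bmpr2 and the target genes Id1, Id3, Smad7 and Ccn2 did not pass. Neither Tgfb1 nor Itgb6 passed without wild type array 1 or without wild type array 3.

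Chaperones of the endoplasmic reticulum were higher in CD9KO. Of 23 genes of the unfolded protein response, by which cells raise their folding capacity, 6 rose and 1 fell (30.4% passed, beside 5.51%), and 22 of 23 had a log2 difference above 0 (median 0.19). Hyou1, a large chaperone, rose from 784, 801, 786 and 811 to 944, 993, 941, 908 and 967 (log2 0.25, SE 0.05, adjusted p = 0.0149). Pdia4, a protein disulfide isomerase, rose from 742, 766, 752 and 783 to 839, 881, 944, 912 and 966 (log2 0.25, adjusted p = 0.0149). Both were tight within groups, with a clear gap between them. Hspa5, the chaperone BiP, measured 4452, 5636, 6098 and 6523 against 6681, 7261, 7368, 6882 and 7606 (log2 0.35, SE 0.09, adjusted p = 0.0425), and wild type array 5 came close to CD9KO array 1. Creld2 rose from 586, 712, 737 and 801 to 862, 987, 996, 987 and 1024 (log2 0.45, SE 0.11, adjusted p = 0.0378), Calr, calreticulin, by 0.27 and Pdia6 by 0.29. Atf4, a transcription factor of a separate branch of the response, fell by 0.16 (adjusted p = 0.0342). Wild type array 1 was the lowest of the 9 arrays for Hspa5, Creld2, Calr and Pdia6. Without it 2 of the 23 rose, 21 were above 0 and the median was 0.15, and 2 rose also without wild type array 3 or any of CD9KO arrays 2 to 5. Levels of this list ran from 10.36 to 10.61 in wild type, 10.67 to 10.76 in CD9KO and 10.46 to 10.71 in CD151KO. CD151KO array 5 lay within the CD9KO range, and CD151KO array 4 between that range and the wild type one.

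Of the 6 genes of the response that rose, the promoters of 4 are shown, chosen because they carry one and the same composite element. The endoplasmic reticulum stress response element (ERSE) is a CCAAT box, 9 bases of any kind and CCACG, bound by NF-Y and by ATF6; it was searched on both strands after the values were seen. The sequences are from RefSeq (GRCm38.p6), each the 250 bases before the annotated gene start, 5′ to 3′ on the strand of the gene, with the element in capitals. Hspa5 lies on the plus strand at chr2:34771840-34772089, Pdia6 on the plus strand at chr12:17266339-17266588, Creld2 on the plus strand at chr15:88819396-88819645 and Calr on the minus strand at chr8:84846932-84847181.
Hspa5: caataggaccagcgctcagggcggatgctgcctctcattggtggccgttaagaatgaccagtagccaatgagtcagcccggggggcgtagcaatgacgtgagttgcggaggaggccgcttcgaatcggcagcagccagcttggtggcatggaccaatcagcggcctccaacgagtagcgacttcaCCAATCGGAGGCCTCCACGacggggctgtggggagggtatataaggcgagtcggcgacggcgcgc
Pdia6: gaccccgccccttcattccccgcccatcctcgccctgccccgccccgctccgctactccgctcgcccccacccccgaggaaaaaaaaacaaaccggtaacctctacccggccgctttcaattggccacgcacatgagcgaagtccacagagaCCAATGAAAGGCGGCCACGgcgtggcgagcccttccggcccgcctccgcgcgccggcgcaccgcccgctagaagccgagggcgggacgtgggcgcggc
Creld2: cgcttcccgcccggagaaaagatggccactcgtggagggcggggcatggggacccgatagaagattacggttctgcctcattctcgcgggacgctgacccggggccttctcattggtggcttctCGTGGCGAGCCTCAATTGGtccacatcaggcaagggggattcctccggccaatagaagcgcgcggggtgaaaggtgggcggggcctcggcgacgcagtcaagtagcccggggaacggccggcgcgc
Calr: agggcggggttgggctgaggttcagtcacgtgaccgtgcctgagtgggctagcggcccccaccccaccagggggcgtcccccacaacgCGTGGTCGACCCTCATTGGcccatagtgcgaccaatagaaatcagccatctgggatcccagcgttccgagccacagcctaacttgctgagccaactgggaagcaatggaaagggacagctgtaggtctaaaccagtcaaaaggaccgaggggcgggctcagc
In Hspa5 and Pdia6 the element reads in the direction of the gene, and in Creld2 and Calr it lies on the opposite strand, so that CGTGG comes first. It begins 65 bases before the gene start in Hspa5, 98 in Pdia6, 126 in Creld2 and 162 in Calr.

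Among all 32851 promoters of 300 bases in the same table, which run 50 bases past the gene start, 39 held this element (0.119%). A promoter was found for 20 of the 23 genes of the response, among them 5 of the 6 that rose (all but Hyou1), and 7 of those held it: the 4 shown, Hsp90b1, Dnajc3 and Canx. All 7 had a log2 difference above 0. Pdia4 rose without the element in its window. Taken from the side of the element, 16 tested genes had it in a promoter and 5 of them rose (31.2%, beside 2.88% of all genes). These 16 include the 7 genes of the response, so the count is not separate from theirs. Of the 16, 12 had a log2 difference above 0, while Spats2l, Zfp57, Acacb and Adcy3 were below it (-0.15, -0.06, -0.09 and -0.02). Outside the response list only Alg12, a mannosyltransferase, rose. It went from 202, 206, 195 and 215 to 235, 235, 249, 259 and 239 (log2 0.23, adjusted p = 0.0393). Alg12 and Creld2 are transcribed in opposite directions from overlapping windows, so they share their element. None of these 5 calls held without wild type array 1, without wild type array 3 or without CD9KO array 3, 4 or 5, and the second probe set of Pdia6 had -0.16. The match is a description of the sequence, and binding was not measured. Of the single motifs searched besides, CCAAT, which is part of the element, occurs in 37.4% of all promoters. The others, which are not part of it, occur in 35.7% (the GC box GGGCGG), 13.6% (TATAAA), 7.44% (GATAAG) and 7.15% (the E-box CACGTG).

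**Figure D4:**
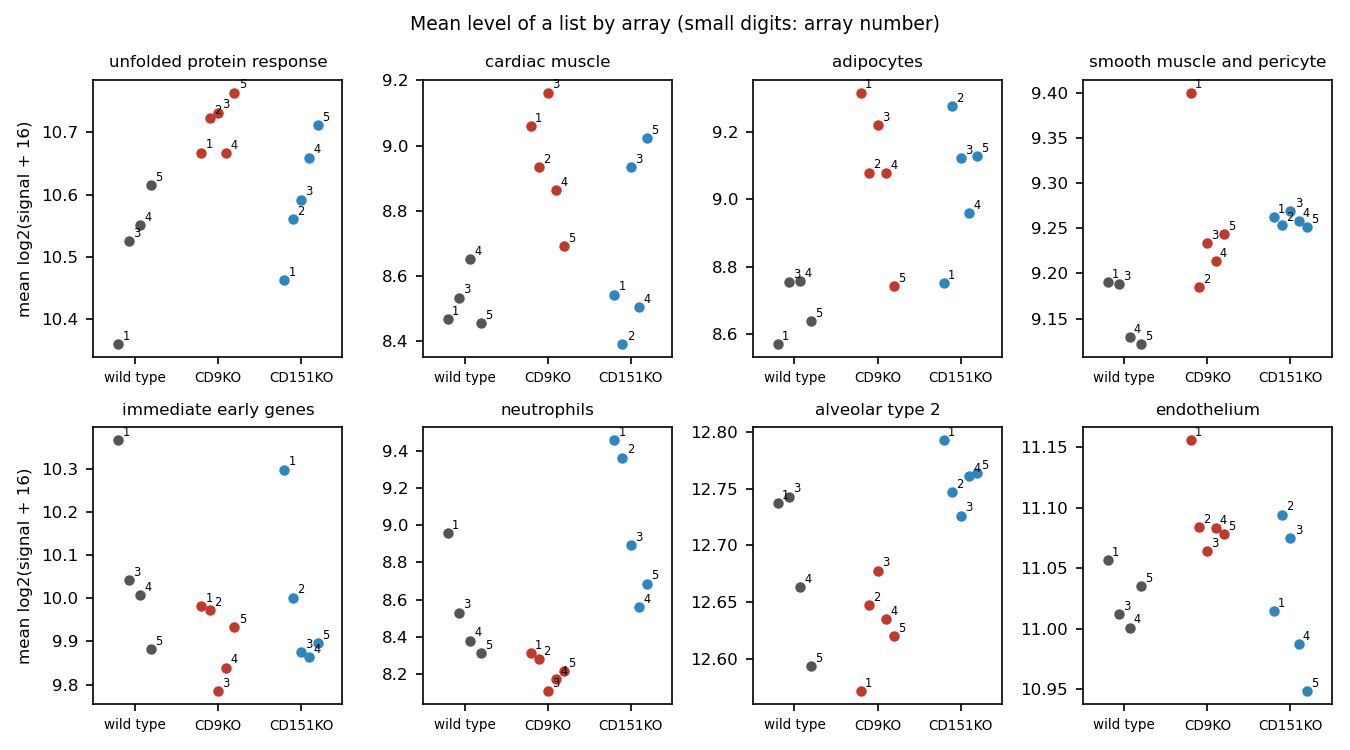
Mean log2(signal + 16) of a gene list on each array (points, numbered by array) in wild type (grey), CD9KO (red) and CD151KO (blue); the y axes differ between panels and do not start at 0. For the unfolded protein response, cardiac muscle and, narrowly, endothelium the 5 CD9KO arrays lie above all 4 wild type arrays. For adipocytes and smooth muscle the CD9KO and wild type arrays overlap. Among the wild type arrays number 1 is lowest for the unfolded protein response and highest for immediate early genes and neutrophils.

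Markers of tissues that a whole lung can carry along also moved. In the mouse, heart muscle cells line the large pulmonary veins, and fat surrounds the hilum. In bulk RNA a larger share of such cells and more RNA per cell cannot be told apart. All 21 cardiac muscle genes tested had a log2 difference above 0, with a median of 0.41. Of these, 4 rose (19.0%, beside 2.88% of all genes) and 13 had CD9KO arrays entirely above the wild type ones (6.64% of all genes had this). Myh6, the α heavy chain of cardiac myosin, rose from 912, 1172, 1324 and 1035 to 1924, 1795, 2264, 1753 and 1484 (log2 0.72, SE 0.17, adjusted p = 0.0275), Hspb7, a small heat shock protein of heart, by 0.53, Myom2, a protein of the sarcomere's M band, by 0.52 and Ldb3, of the Z disc, by 0.40. The list level ran from 8.46 to 8.65 in wild type, 8.69 to 9.16 in CD9KO and 8.39 to 9.02 in CD151KO on the log2 scale. Without wild type array 1 or 3, or CD9KO array 3, 1 of the 21 rose, and all 21 stayed above 0. None of 9 skeletal muscle genes passed (median -0.01).

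All 11 adipocyte genes tested were above 0 as well, with a median of 0.43, and 4 rose (36.4%, beside 2.88% of all genes). Lipe, hormone-sensitive lipase, rose from 126, 125, 127 and 112 to 182, 221, 172, 191 and 162 (log2 0.54, SE 0.09, adjusted p = 0.0108) and Pnpla2, the lipase that starts the breakdown of stored fat, by 0.23. Plin4, a lipid droplet coat protein, rose by 0.43. Car3, carbonic anhydrase 3, abundant in fat, had 2031, 2344, 2594 and 2406 in wild type and 4724, 3477, 4406, 3701 and 2397 in CD9KO (log2 0.64, SE 0.17, adjusted p = 0.0425), so CD9KO array 5 lay within the wild type range. Adipoq, the fat cell hormone adiponectin, had 0.55 (adjusted p = 0.098). The list level ran from 8.57 to 8.76 in wild type, 8.74 to 9.32 in CD9KO and 8.75 to 9.27 in CD151KO. Without wild type array 3, CD9KO array 3 or CD9KO array 4, 1 of the 11 rose.

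Smooth muscle encircles airways and vessels, and pericytes wrap capillaries. Of 18 genes of the smooth muscle and pericyte list 5 rose (27.8%, beside 2.88% of all genes) and none fell, with a median of 0.07. Actg2, smooth muscle γ-actin, rose from 213, 235, 205 and 223 to 367, 333, 299, 271 and 328 (log2 0.51, SE 0.07, adjusted p = 0.0058). Cnn1, calponin, rose from 417, 475, 405 and 412 to 733, 590, 574, 508 and 588 (log2 0.46, SE 0.09, adjusted p = 0.0150). Actg2 and Cnn1 passed in all 21 alternatives. Myh11, smooth muscle myosin, rose by 0.29, Tagln by 0.26 and Lmod1 by 0.19. Pdgfrb, Cspg4, Rgs5 and Notch3, known from pericytes, had log2 differences of -0.03, 0.04, -0.45 and -0.12. Levels of this list ran from 9.12 to 9.19 in wild type, 9.18 to 9.40 in CD9KO and 9.25 to 9.27 in CD151KO. All CD151KO arrays thus lay above the wild type range, while CD9KO overlapped it. Without wild type array 1 or 3, 2 of the 18 rose.

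Of 22 endothelial genes tested, 2 rose and 1 fell (13.6% passed, beside 5.51%), and the median was 0.07. The CD9KO arrays lay entirely above the wild type ones for 6 genes (6.64% of all genes) and entirely below for 1 (5.19%). The list level ran from 11.001 to 11.057 in wild type, 11.064 to 11.156 in CD9KO and 10.948 to 11.094 in CD151KO. Flt1, a VEGF receptor, rose from 1171, 1302, 1387 and 1577 to 1929, 1828, 1780, 1867 and 1873 (log2 0.45, SE 0.07, adjusted p = 0.0108), with all 4 probe sets in the same direction. Ramp2, the partner of the adrenomedullin receptor in blood vessels, rose by 0.20. Emcn, endomucin of capillaries and veins, fell from 1608, 1408, 1331 and 1178 to 1070, 887, 1060, 1082 and 941 (log2 -0.44, SE 0.11, adjusted p = 0.0313). The general endothelial genes Pecam1 (0.13), Cdh5 (0.05) and Kdr (-0.19) did not pass. Without wild type array 3, Flt1 was the sole call of the list. Lyve1, of lymphatic vessels, just missed the threshold at 0.53 (adjusted p = 0.0504).

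The genes of this paragraph, some of them known from endothelium, were picked because they passed, so they say nothing of a group. Notch4, a Notch receptor of vessels, rose from 651, 741, 828 and 960 to 1114, 1122, 1194, 1350 and 1171 (log2 0.58, SE 0.09, adjusted p = 0.0089). Thbd, thrombomodulin, rose by 0.41, Stard8, Arap3 and Fgd5, regulators of small GTPases, by 0.41, 0.42 and 0.46, and Kank3, a cytoskeletal adaptor, by 0.36. For each of these 6 genes all CD9KO arrays lay above all wild type arrays, as for 330 of the 374 genes that rose. Thbd and Kank3 did not pass without wild type array 3. Fgfr2, a fibroblast growth factor receptor of lung epithelium, fell by 0.37, from 2493, 2138, 1927 and 1933 to 1624, 1643, 1682, 1572 and 1604. Map2, a microtubule protein, had the largest log2 rise of any gene that passed, 1.13 (SE 0.21, adjusted p = 0.0144), but its arrays overlapped: 97.6, 145, 100.4 and 96.0 against 326, 217, 367, 144 and 283. Wdfy1, an endosomal adaptor, rose by 0.92, also with overlap. Resp18, of endocrine secretory granules, rose from 56.3, 57.6, 61.8 and 53.6 to 77.3, 85.0, 91.5, 102 and 94.8 (log2 0.53, adjusted p = 0.0040), close to the filter.

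**Figure D5:**
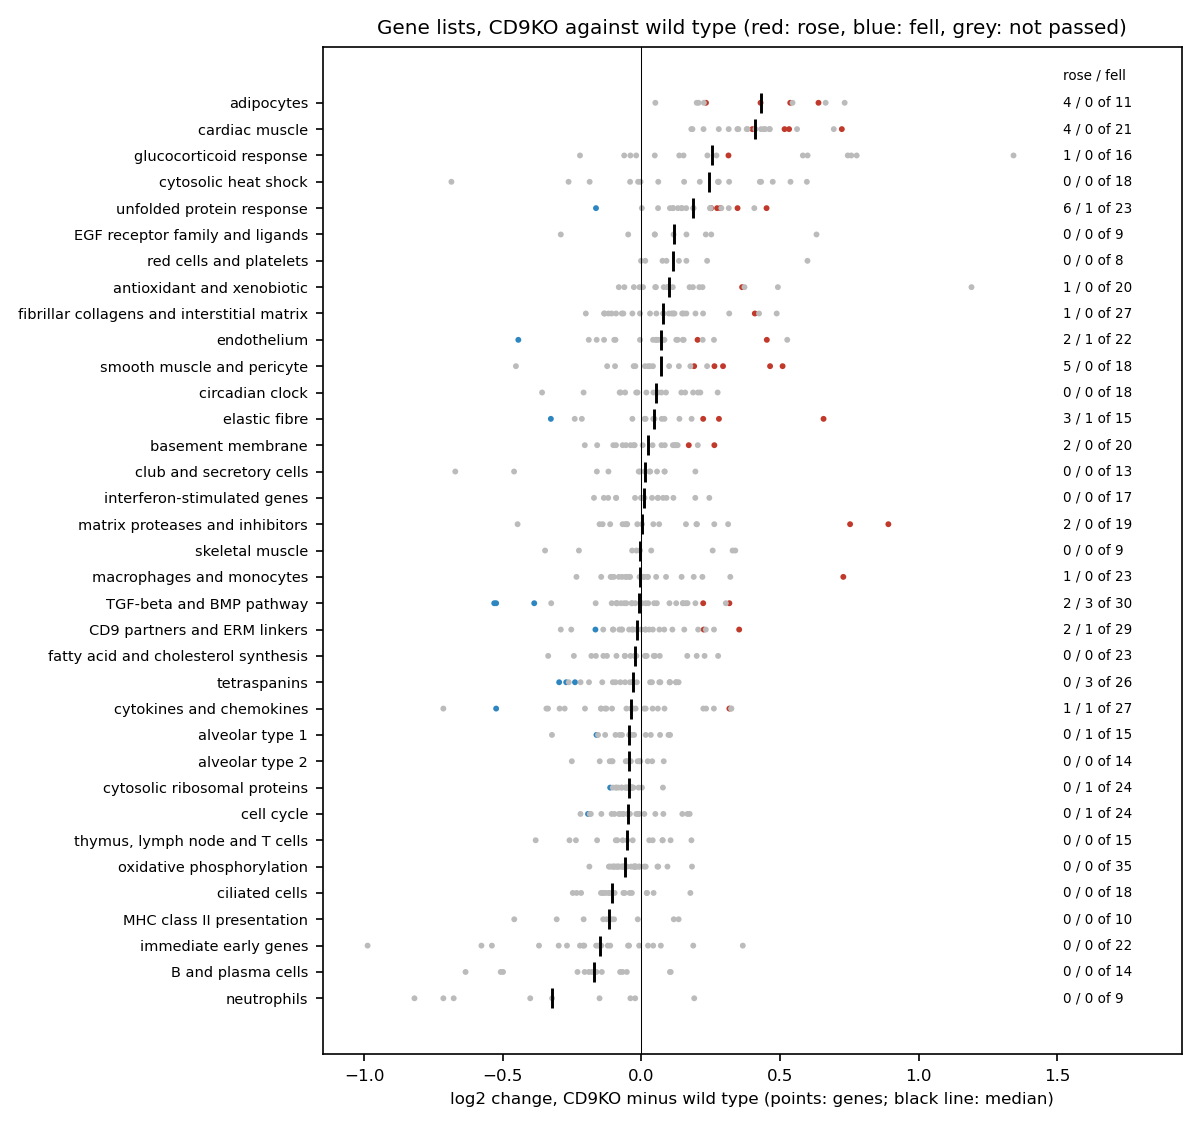
Log2 change in CD9KO of every tested member (point) of the 35 gene lists, ordered by the list median (black line), with members that rose in red, members that fell in blue and the counts at the right. Cardiac muscle and adipocyte members all lie right of 0, 22 of 23 unfolded protein response members do, and the epithelial, lymphocyte, ribosomal and respiratory chain lists hold 1 call or none each.

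Epithelial and immune cell lists held 1 call or none each, and at 5.51% of all genes a count this small in lists this short is no result about these cells. None of 14 alveolar type 2 genes passed (median -0.04), which is the surfactant-producing cell, and their list level of 12.6 to 12.7 on the log2 scale in both groups shows the defining genes of lung present in every sample. Sema3b, which fell by 0.16, was the only call among 15 alveolar type 1 genes (median -0.04). None of 13 club and secretory cell genes (0.01) or 18 ciliated cell genes (-0.11) passed. Cd163, the haemoglobin scavenger receptor of tissue macrophages, rose from 106, 123, 141 and 140 to 209, 184, 215, 265 and 238 (log2 0.73, SE 0.19, adjusted p = 0.0398), the only call among 23 macrophage and monocyte genes, whose median was -0.01. Mrc1, another macrophage scavenger receptor, had 0.22 (adjusted p = 0.112) and Cd68 -0.23 (0.0907). T cell, B cell, MHC class II and red cell lists gave no calls in 15, 14, 10 and 8 genes.

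None of 9 neutrophil genes passed. Their median was -0.32, -0.17 without wild type array 1 and -0.04 with no filter on low signal. S100a9, a calcium-binding protein of neutrophils, had 2248, 1073, 766 and 873 in wild type and 609, 673, 484, 670 and 761 in CD9KO (log2 -0.82, SE 0.38, adjusted p = 0.192). Il1b, interleukin-1β, had 394, 213, 182 and 155 against 116, 132, 114, 126 and 160 (log2 -0.71, adjusted p = 0.185). Wild type array 1 was the highest for both. Among 27 cytokines and chemokines Tgfb1 and Tgfb2 were the only calls (7.41%, beside 5.51% of all genes). Both were already counted in the TGF-beta and BMP list. None of 17 interferon-stimulated genes passed.

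The lists of other stress and hormone responses gave 1 call at most, also near the share of all genes. None of 22 immediate early genes passed (median -0.15, and -0.09 without wild type array 1). None of 18 cytosolic heat shock genes passed (median 0.24, and 0.03 without wild type array 1). Of 16 glucocorticoid response genes Sgk1, a kinase that regulates sodium transport, rose by 0.31 with overlapping arrays. The median was 0.25 (0.17 without wild type array 1), and 12 of the 16 were above 0. For 5 of the 16 the CD9KO arrays lay entirely above the wild type ones (6.64% of all genes had this). The list level ran from 10.6 to 11.1 in wild type, 11.2 to 11.4 in CD9KO and 10.4 to 11.3 in CD151KO. Fkbp5, a chaperone of the glucocorticoid receptor, had 243, 653, 840 and 794 in wild type and 1313, 1418, 1385, 2107 and 1294 in CD9KO (log2 1.34, SE 0.45, adjusted p = 0.0832). Its groups did not overlap, but the spread within wild type was wide and it did not pass. Gpx3, the extracellular glutathione peroxidase, rose by 0.36 and was the only call among 20 antioxidant genes. No gene of the circadian clock (18 tested), of fatty acid and cholesterol synthesis (23) or of oxidative phosphorylation (35) passed. Of the 35 oxidative phosphorylation genes 29 were below 0 and 6 above, with a median of -0.06 (-0.02 without wild type array 1). For 5 of them the CD9KO arrays lay entirely below the wild type ones (5.19% of all genes had this). Of all 12985 genes tested, 6651 were above 0. Rpl11 fell by 0.11 among 24 ribosomal protein genes, of which 22 were below 0 and 2 above (median -0.04). Mcm5, a replication helicase subunit, fell by 0.19 among 24 cell cycle genes, of which 18 were below 0 and 6 above.

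Genes on the chromosome of Cd9 were examined because a knockout made in cells of another strain can carry neighbouring DNA of that strain. Within 5 Mb of Cd9, 5 of 99 tested genes passed (5.05%), within 10 Mb 12 of 158 (7.59%) and within 20 Mb 15 of 231 (6.49%), beside 5.51% overall. The 5 nearest were Spsb2, Mfap5 and Atp6v1e1, which fell by 0.18, 0.33 and 0.13, and Cd163 and Cecr2, which rose by 0.73 and 0.45. Cecr2, a chromatin remodelling factor, went from 62.2, 86.2, 88.9 and 86.8 to 117, 116, 128, 105 and 113 (adjusted p = 0.0149) and passed in all 20 alternatives that could test it. Kdm5a, Apold1, Vgll4 and Kcnj8 lie farther out. For Atp6v1e1, Adipor2, Erc1, Kdm5a and Etfrf1 at least 1 other probe set had the opposite sign. The origin of the cells used for the knockout was not analysed here.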

How the data were processed

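Total RNA of whole lungs was labelled with biotin and measured on 1-colour Affymetrix arrays, 1 per sample, per the labels' protocols. The authors deposited a normalized linear intensity for each probe set. The submitters' processing notes name Affymetrix Expression Console and MAS5 without role or version; the background correction and build are not stated there. Array medians lay between 84.3 and 86.2, and log2 values of any 2 of the 9 arrays correlated at 0.991 or more; precision is limited by how many arrays there are.

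Of 45101 probe sets, 64 are controls, and 34945 of the others have 1 gene symbol in the platform annotation. Over all 45101, controls included, 932 have several symbols and 9211 none. Only probe sets with 1 symbol that are not controls were used, the brightest of each gene. Genes below the 40th percentile (log2 6.12) were left out. Values of log2(signal + 16) were fitted with limma 3.58.1 (R 4.3.3) on 14 arrays in 3 groups, using eBayes with a trend (11 residual degrees of freedom), two-sided, with Benjamini-Hochberg adjustment over 12985 genes. Array measures were compared by exact permutation tests.

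Genes named were Cd9, the 15 largest rises and 15 largest falls (Cd9 among them) without overlapping arrays, up to 4 members of each list by smallest p, and genes within 20 Mb of Cd9 that passed; genes outside this rule complete the count of a list or were picked with their values in view. The 35 lists, with 791 entries, are described by counts and medians without a set test. Members and lists were chosen with earlier results of these data known. Pseudocounts, normalization, filters, probe set rules, fits and each array in turn were varied, and the procedure was tested on simulated data.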

Additional observations from a re-analysis of the deposited data

Results flagged for a closer look

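In 402 groups of 4 or 5 arrays (193 genes and 8 array measures are covered in wild type and in CD9KO, by Dixon's test at 95%), 20 had 1 array far from the others, and chance flags about 1 in 20 groups. Wild type array 1 was the low one for Plin4 (101), Lyve1 (4907), Cycs (3307) and Cecr2 (62.2), and the high one for Rpl27 (7096) and Adipor2 (1633). Wild type array 3 was the high one for Elovl6 (133), Fasn (1847) and Map2 (145), wild type array 4 for Ckm (129), and wild type array 5 was the low one for Lipe (112). CD9KO array 2 was high for P4ha2 (1368), H2-DMa (1020) and H2-Aa (9025) and low for Ccr7 (110). CD9KO array 1 was high for Vegfa (3714) and low for Creld2 (862). CD9KO array 4 was high for Fkbp5 (2107) and Lims2 (3063), and CD9KO array 5 was low for Cldn10 (675).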

How the results depend on the processing

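Cd9 passed under every alternative run, with log2 changes from -3.61 to -3.55 when single arrays were left out. The count of 715 genes (374 rose, 341 fell) moved with several choices. It was 1090 (623 rose) with array weights, 1555 probe sets (709 rose, 846 fell) with every probe set tested, and 26 at 1.5-fold or more, and 194 genes fell when only the CD9KO and wild type arrays entered the fit. Leaving out 1 array gave 158 to 726 genes, 82 to 342 that rose and 75 to 384 that fell, and leaving out the arrays numbered 1 of wild type and CD151KO gave 405 (231 rose, 174 fell). With the replicate number as a block 1591 genes passed (853 rose, 738 fell); deviations of same-numbered wild type and CD9KO arrays correlated at 0.060, 0.004, 0.179 and 0.096, so the numbers were not taken as pairs. Averaging all probe sets of a gene reversed Lamc1 (-0.029, adjusted p = 0.782) and Erc1 (-0.018, adjusted p = 0.804). The causes were not tested. Another background correction and the slide as a block were not run, because the values come without scanner files or slide labels. Weak signals near the background limit the folds of genes such as Pcdh20.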
